A study of Mus musculus with 3 samples.

Results

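The 44 collagen genes of the mouse were examined in chromatin accessibility maps of hair follicle stem cells (HFSCs). A gene was a member if it was protein-coding and its symbol had the form Col, a number, a and a number, which held for 44 of 21851 protein-coding genes with a coding transcript on chromosomes 1 to 19, X or Y of the GENCODE M21 annotation (GRCm38). Accessibility was read out by Omni-ATAC-seq, an assay whose Tn5 transposase inserts adapters into open chromatin. There were 3 libraries, each with its own peak list: 1 from Msx2-WT and 2 from Msx2-KO, all from 6-month-old mice. Msx2 encodes a homeodomain transcription factor. Per the study's methods, Msx2-KO mice carried a neo cassette upstream of exon 2 of Msx2 as a germline knockout, Msx2-WT mice were C57BL/6J animals matched for the hair cycle, and HFSCs were sorted from dorsal skin in telogen as CD34+CD49f+Sca-1- cells.

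Collagens are proteins of 3 chains wound into a triple helix. Fibrillar collagens form the ropes of the dermis, bone and cartilage. Basement-membrane collagens (the Col4 genes) form the sheet on which epithelial cells sit, Col6 chains form beaded filaments beside it, and transmembrane collagens such as Col17a1 are made by the epithelial cell itself and help to hold it to that sheet. Most fibrillar collagen of skin is made by fibroblasts rather than keratinocytes. HFSCs rest in a niche rich in basement membrane.

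Genotypes could not be tested with a single Msx2-WT library, so counts and levels are described and no p-value is given for any of them. The labels give the Msx2-WT library another batch than both Msx2-KO libraries, and genotype and batch cannot be told apart. Peaks in the lists of the Msx2-KO libraries are named with cKO, a term that the labels do not use. Those in the list of replicate 1 also carry another library number than its label, so which library the replicate 1 values come from is not certain. The labels were followed. A level is the number of tags (Tn5 cut ends extended by the authors' peak caller) piled up at a summit. The typical background was 1.74 tags in Msx2-WT and 0.476 and 0.790 in Msx2-KO replicates 1 and 2, and levels are also given over that background. A peak is a summit with −log10 q above 2.0, which took at least 9 tags in Msx2-WT (5.18 times the background), 5 tags in Msx2-KO replicate 1 (10.5 times) and 6 tags in replicate 2 (7.59 times). The number of such summits was 33654, 19450 and 41091 in the same order. A promoter peak is one whose summit lies within 1500 bases of the start of a coding transcript. Intervals on tag numbers are exact 95% Poisson intervals of a single library and cover counting error only. Duplicate reads were kept, so the intervals can be too narrow even for that.

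The promoter of Msx2 carried a peak in every library, with 15 tags in Msx2-WT and 9 and 16 in Msx2-KO replicates 1 and 2. The cassette lies downstream of this promoter, so the peak does not check the knockout. HFSC markers were open, with promoter peaks at 8 of 8 in Msx2-WT and at 5 and 8 of 8 in Msx2-KO replicates 1 and 2. Krt15, Trp63 and Cd34 did not pass in replicate 1. Of 7 fibroblast markers, Pdgfra was open in Msx2-WT, 0 passed in Msx2-KO replicate 1 and 2 in replicate 2 (Pdgfra with 9 tags and Prrx1 with 7), while Dcn, Lum, Pdgfrb, Twist2 and Dpt had none in any library. Of 5 endothelial markers only Kdr had one, with 6 tags in Msx2-KO replicate 2, and of 5 leukocyte markers none had one. Melanocyte markers had promoter peaks for 3, 2 and 3 of 5 genes in the 3 libraries, with Dct and Pmel open in all 3. The part of other cells in the collagen results was not tested.

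Collagen promoters were mostly closed in Msx2-WT and in Msx2-KO replicate 1 and open for most of the genes in replicate 2. In Msx2-WT, 5 of 44 collagen genes (11.4%) had a promoter peak, compared with 47.1% of all protein-coding genes. In Msx2-KO replicate 1 the number was 6 (13.6%), beside 37.9% of all genes. In Msx2-KO replicate 2 it was 24 (54.5%), close to the 53.7% of all genes. At this threshold the Msx2-KO libraries differed more from each other in this count than Msx2-WT did from replicate 1. Where open, collagen promoters were low. The median was 12 tags in Msx2-WT against 24 over all genes with a promoter peak, 7 against 13 in Msx2-KO replicate 1, and 10 against 21 in replicate 2.

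Msx2-KO replicate 2 had the most open collagen promoters at each threshold tried, but its count fell when the threshold was stricter. With every deposited summit, the collagen share came closer to that of all genes in Msx2-WT and in Msx2-KO replicate 1. It was 45.5% against 58.8% in Msx2-WT and 34.1% against 45.3% in replicate 1. In replicate 2 it was 65.9% against 61.9%. At −log10 q of at least 5, the collagen promoters that passed numbered 2 in Msx2-WT and 0 and 9 in Msx2-KO replicates 1 and 2 (4.55%, 0 and 20.5%), beside 39.0%, 25.5% and 44.2% of all genes. With the summits of largest −log10 p kept in equal number from each list, those that passed numbered 2 in Msx2-WT and 6 and 8 in Msx2-KO replicates 1 and 2, compared with 39.2%, 37.9% and 40.9% of all genes. Msx2-WT then differed more from Msx2-KO replicate 1 than the Msx2-KO libraries did from each other, the reverse of the order at the main threshold. At the 24 promoters open in Msx2-KO replicate 2, Msx2-WT had a peak at 5, a summit below the threshold at 11 and nothing listed at 8. Msx2-KO replicate 1 had a peak at 6, a summit below the threshold at 7 and nothing listed at 11. Over all genes, 53.7% were open in replicate 2. By split these were 35.2% open in all 3 libraries and 9.64% shared with Msx2-WT only. A further 2.32% were shared with replicate 1 only, and 6.50% were open in replicate 2 alone.

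**Figure D1:**
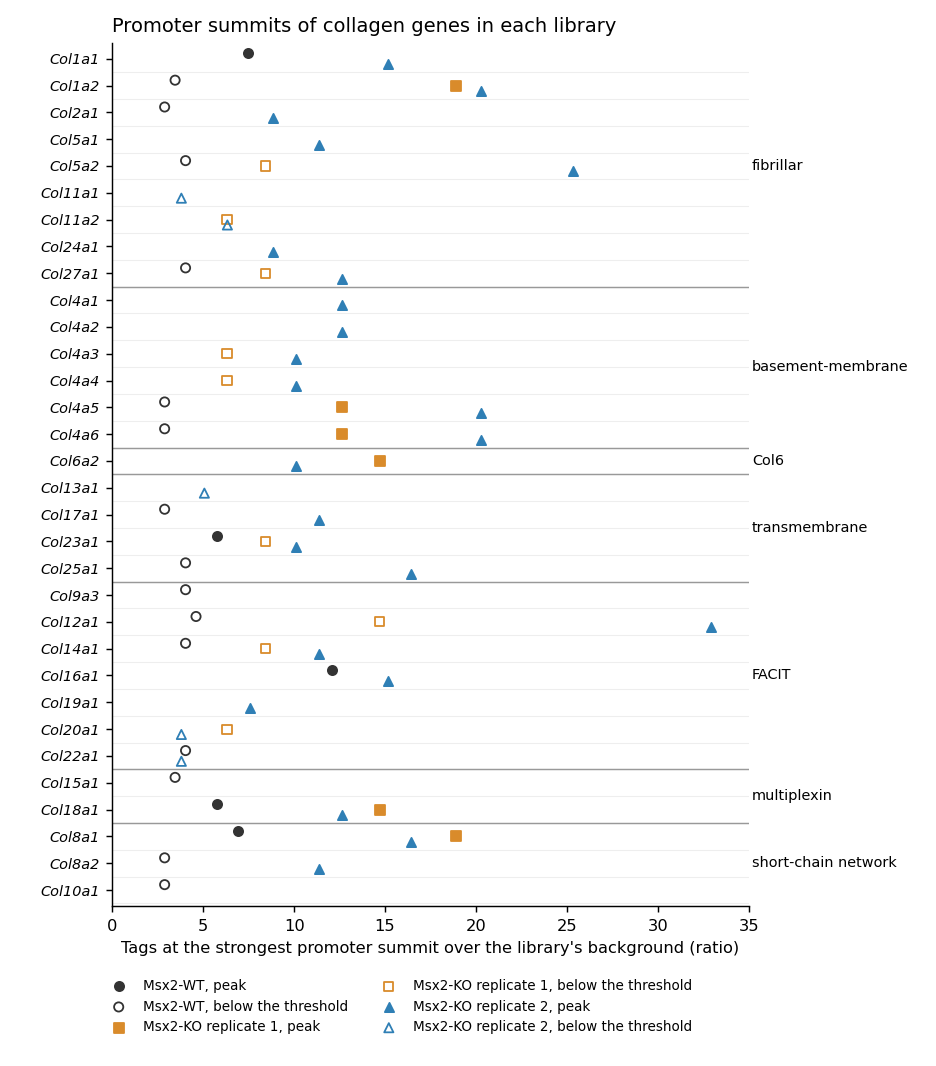
Tags at the strongest summit within 1500 bases of a coding start site, over the typical background of the library (x axis, ratio), for each collagen gene with a listed summit (rows, grouped by class). Filled symbols are peaks and open symbols are summits below the threshold. Collagen genes with no listed summit in any library are not drawn. Msx2-WT circles lie at the left, with filled ones for 5 genes only, and Msx2-KO replicate 2 triangles are filled for 24.

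Col18a1 and Col8a1, 2 of 44 genes, had a promoter peak in all 3 libraries, while 35.2% of all genes did. The number was 0 at −log10 q of at least 5 and with lists of equal length, and 10 with every deposited summit. Col18a1 encodes a basement-membrane proteoglycan collagen from which endostatin is cut. At its outer start site (chr10:77052178-77166548, minus strand) the summit lay at position 6 in Msx2-WT with 10 tags, at position 10 in Msx2-KO replicate 1 with 5 tags and at position -78 in replicate 2 with 9 tags. Over the background these were 5.75, 10.5 and 11.4. Msx2-KO replicate 1 had a further summit of 7 tags at an inner start site of Col18a1, and replicate 2 one of 10 tags at position -1294. Col8a1 (chr16:57624258-57754737, minus strand) encodes a chain of a short network-forming collagen. Its summits lay at positions 719, 677 and 680 in Msx2-WT and Msx2-KO replicates 1 and 2, with 12 (95% interval 6.20 to 21.0), 9 (4.12 to 17.1) and 12 (6.20 to 21.0) tags. The tag numbers of Col8a1 overlapped within counting error, which does not allow for the higher background of Msx2-WT. Over the background they were 6.90, 18.9 and 15.2.

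A promoter peak in both Msx2-KO replicates but not Msx2-WT was found for 4 genes, Col1a2, Col4a5, Col4a6 and Col6a2. The number was 0 at −log10 q of at least 5, and 19 genes were open in replicate 2 and not in Msx2-WT when replicate 1 was left out. The split of both Msx2-KO replicates without Msx2-WT held 2.32% of all genes. That of replicate 2 alone, which the 19 genes also take in, held 6.50%. Col4a5 and Col4a6 share a single peak. No collagen gene had a promoter peak in Msx2-WT alone, a split of 2.11% of all genes, in Msx2-KO replicate 1 alone (0.243%) or in Msx2-WT and Msx2-KO replicate 1 only (0.137%). Col1a2 (chr6:4504814-4541544, plus strand) encodes the second chain of type I collagen. It had 6 tags in Msx2-WT, below the threshold, 9 tags in Msx2-KO replicate 1 (4.12 to 17.1) and 16 in replicate 2 (9.15 to 26.0). The Msx2-WT value of 6 lies inside the interval of Msx2-KO replicate 1 and below that of replicate 2. Over the background the levels of Col1a2 were 3.45, 18.9 and 20.2.

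Col4a5 (chrX:141475385-141689234, plus strand) and Col4a6 (chrX:141165403-141474076, minus strand) encode chains of the basement membrane of skin, and their start sites lie 1309 bases apart on opposite strands. The shared summit lay 112 bases inside Col4a5 in Msx2-KO replicate 1 with 6 tags and 132 bases inside it in replicate 2 with 16 tags. In Msx2-WT a summit of 5 tags at position -185 did not pass. With a promoter window of 500 bases the peak belonged to Col4a5 alone. Col6a2 (chr10:76595762-76623630, minus strand) encodes a chain of the beaded filament collagen VI. It had 7 tags in Msx2-KO replicate 1 (2.81 to 14.4), 8 in replicate 2 (3.45 to 15.8) and no listed summit in Msx2-WT, whose list starts at 5 tags. The Col6a2 peaks were low, at 14.7 and 10.1 times the background.

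The 200 bases before the first coding start site of Col1a2, Col4a5 and Col6a2 are shown because these promoters set Msx2-WT apart at the main threshold, and those of Col17a1 because this is the collagen of the hemidesmosome (GRCm38, each on the strand of its gene). Capitals mark GGGCGG of Sp1, CCAAT of NF-Y and TATAAA, each on either strand.
Col1a2, chr6:4505293-4505492: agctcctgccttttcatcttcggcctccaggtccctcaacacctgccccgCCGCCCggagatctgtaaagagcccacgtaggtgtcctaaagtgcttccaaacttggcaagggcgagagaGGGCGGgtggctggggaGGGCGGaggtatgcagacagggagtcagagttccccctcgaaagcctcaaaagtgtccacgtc
Col4a5, chrX:141475185-141475384: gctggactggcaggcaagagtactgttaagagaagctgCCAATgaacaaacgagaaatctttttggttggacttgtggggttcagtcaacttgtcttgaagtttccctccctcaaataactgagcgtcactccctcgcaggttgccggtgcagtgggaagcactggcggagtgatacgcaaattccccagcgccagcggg
Col6a2, chr10:76623631-76623830: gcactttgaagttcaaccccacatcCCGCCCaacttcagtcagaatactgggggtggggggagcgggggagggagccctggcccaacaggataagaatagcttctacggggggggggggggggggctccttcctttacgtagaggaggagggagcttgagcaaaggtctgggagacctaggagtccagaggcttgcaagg
Col17a1, chr19:47692095-47692294: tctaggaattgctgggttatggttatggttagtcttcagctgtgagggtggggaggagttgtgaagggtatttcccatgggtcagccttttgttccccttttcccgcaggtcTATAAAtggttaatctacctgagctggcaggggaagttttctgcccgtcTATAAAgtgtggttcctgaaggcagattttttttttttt
Col1a2 held 3 matches to GGGCGG, Col6a2 held 1, Col4a5 held 1 match to CCAAT, and Col17a1 held 2 to TATAAA. These are matches of letters and not bound sites.

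Col1a1, Col23a1 and Col16a1 had a promoter peak in Msx2-WT and one of the Msx2-KO libraries, replicate 2, a split of 9.64% of all genes. Col1a1 encodes the first chain of type I collagen and had 13 tags in Msx2-WT, no listed summit in Msx2-KO replicate 1 and 12 tags in replicate 2. Msx2-KO replicate 2 was thus the only library in which the genes of both type I collagen chains were open. Col1a1 was also open in Msx2-WT, and Col1a2 was also open in Msx2-KO replicate 1. Col16a1, a collagen that sits on fibrils, had 21 tags in Msx2-WT, none listed in Msx2-KO replicate 1 and 12 in replicate 2. It was the highest collagen promoter of Msx2-WT. Col23a1, a transmembrane collagen, had 10, 4 and 8 tags in Msx2-WT and Msx2-KO replicates 1 and 2, the 4 being below the threshold.

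Of the 44 genes, 15 were open at the promoter in Msx2-KO replicate 2 alone, against 6.50% of all genes. They were Col2a1, Col5a1, Col5a2, Col24a1 and Col27a1 of the fibrillar class, Col4a1, Col4a2, Col4a3 and Col4a4 of basement membranes, Col17a1, Col25a1, Col12a1, Col14a1, Col19a1 and Col8a2. The highest was Col12a1, with 26 tags in Msx2-KO replicate 2 (17.0 to 38.1), 8 tags in Msx2-WT and 7 in Msx2-KO replicate 1. All 3 libraries had a Col12a1 summit, and only that of Msx2-KO replicate 2 passed. Col5a2, a chain of type V collagen that sets fibril width, had 20 tags in Msx2-KO replicate 2 (12.2 to 30.9), 7 in Msx2-WT and 4 in Msx2-KO replicate 1. Col17a1, known for holding HFSCs to the basement membrane, had 9 tags at position -97 in Msx2-KO replicate 2, a summit of 5 tags at position 1477 in Msx2-WT, below the threshold, and none listed in Msx2-KO replicate 1.

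Among the other 20 genes no library had a promoter peak, against 43.8% of all genes. They were Col3a1, Col5a3, Col11a1 and Col11a2 of the fibrillar class, Col6a1, Col6a3, Col6a4, Col6a5 and Col6a6, the transmembrane Col13a1, the FACITs Col9a1, Col9a2, Col9a3, Col20a1 and Col22a1, and Col15a1, Col7a1, Col10a1, Col26a1 and Col28a1. Neither Col3a1, a major collagen of the dermis, nor Col7a1, the anchoring fibril beneath the basement membrane, had even a summit below the threshold.

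The classes differed in how many of their promoters were open, although they hold 1 to 11 genes each and no test was run between them. All 6 basement-membrane genes had a promoter peak in Msx2-KO replicate 2, while replicate 1 had 2 and Msx2-WT 0. Those 6 genes are 3 pairs with shared promoters, so they stand for 3 peaks. Fibrillar genes were open for 1 of 11 in Msx2-WT and 1 and 7 in Msx2-KO replicates 1 and 2. Col6 genes were the most closed of the 4 main classes in Msx2-KO replicate 2, with 0, 1 and 1 of 6 open, Col6a2 in each case. Transmembrane genes had 1, 0 and 3 of 4 and FACITs, which bind the surface of fibrils, 1, 0 and 4 of 9. Over all genes the shares were 47.1% in Msx2-WT and 37.9% and 53.7% in Msx2-KO replicates 1 and 2. The fibrillar and FACIT counts of Msx2-KO replicate 2 thus lay near the share of all genes in that library. With lists of equal length the basement-membrane and fibrillar counts of Msx2-KO replicate 2 were 2 and 3.

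**Figure D2:**
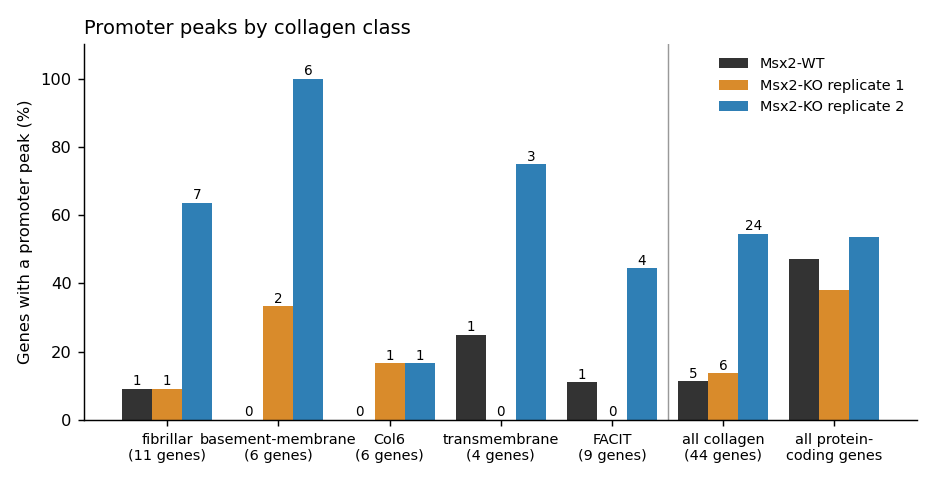
Share of genes with a promoter peak (y axis, percent) for the 5 collagen classes of 4 or more genes and each library, with all collagen genes and all protein-coding genes at the right. Numbers over the bars are genes. Msx2-KO replicate 2 reached 6 of 6 basement-membrane genes and 1 of 6 Col6 genes, and Msx2-WT lay below its share of all genes (47.1%) in each of these 5 classes.

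The Col4 genes lie as pairs that run in opposite directions from a shared promoter. The start sites of Col4a1 (chr8:11198423-11312826, minus strand) and Col4a2 (chr8:11312805-11449287, plus strand), the chains of nearly every basement membrane, lie 21 bases apart. Only Msx2-KO replicate 2 had a summit there, with 10 tags (4.80 to 18.4) at position 1 of Col4a1, and neither other library listed one. The gene records of Col4a3 and Col4a4, chains best known from the kidney, lie 72 bases apart. Their summit had 8 tags in Msx2-KO replicate 2 (3.45 to 15.8) against 3 in the other replicate, below the threshold, and none was listed in Msx2-WT. The 126 bases between their first coding start sites are shown as the shared promoter (GRCm38, plus strand), with no match to the letters above.
Col4a4 and Col4a3, chr1:82586850-82586975: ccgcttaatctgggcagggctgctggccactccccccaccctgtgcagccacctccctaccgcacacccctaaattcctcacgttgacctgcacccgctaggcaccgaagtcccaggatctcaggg

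Collagen promoters were read for their letters from 250 bases before to 50 after the start site. Their median G+C content was 60.0%, beside 55.7% over all 21851 promoters, but their CpG dinucleotides were rarer, with a median of 0.473 of the number that the base composition would give, against 0.552. A CpG ratio of at least 0.6 was reached by 12 of 44 collagen promoters (27.3%) and by 46.4% of all promoters. GGGCGG was found in 59.1% of collagen promoters and 44.9% of all, CCAAT in 40.9% and 38.8%, and TATAAA in 13.6% and 12.5%. The letters of the homeodomain factors (TAATTA or TAATTG) were found in 13.6% and 11.9%.

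CpG-rich promoters are open in most cell types, and those of collagen genes were mostly closed in 2 of the 3 libraries. Of the 12 CpG-rich collagen promoters, 1 had a peak in Msx2-WT (8.33%), where 75.6% of all CpG-rich promoters had one. In Msx2-KO replicate 1 the share was 0 of 12, beside 62.5%. In Msx2-KO replicate 2 it was 9 of 12 (75.0%), beside 84.1%. The 12 promoters were those of Col2a1, Col5a1, Col5a3, Col27a1, Col4a1, Col4a2, Col13a1, Col23a1, Col25a1, Col12a1, Col15a1 and Col8a2, and the one open in Msx2-WT was Col23a1. Col4a1 and Col4a2 share their promoter, so the 12 are not independent. Among the 32 CpG-poor collagen promoters the shares were 12.5%, 18.8% and 46.9%, beside 22.5%, 16.7% and 27.3% of all CpG-poor promoters.

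**Figure D3:**
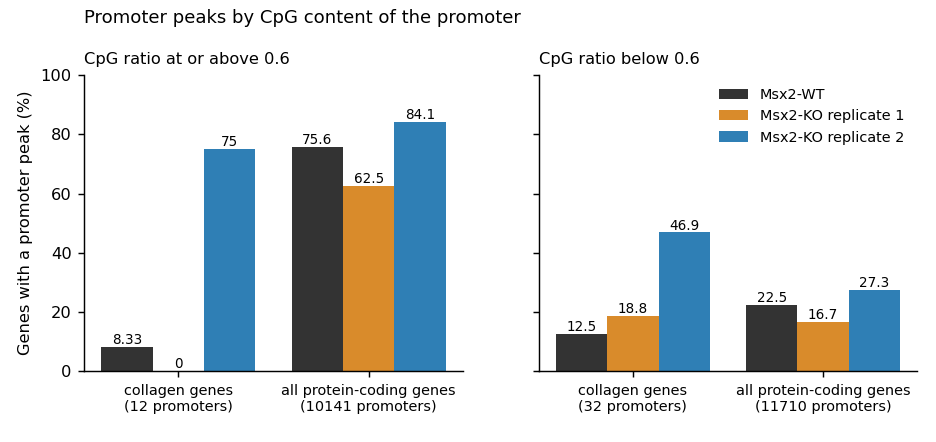
Share of genes with a promoter peak (y axis, percent) for promoters with a CpG ratio of at least 0.6 (left) and below it (right), in collagen genes and in all protein-coding genes. For CpG-rich promoters the collagen bars of Msx2-WT (8.33%) and Msx2-KO replicate 1 (0) lie far below those of all genes (75.6% and 62.5%), and that of replicate 2 (75.0%) lies near its own (84.1%).

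Within collagen genes away from any promoter, 96 open regions were found in 25 of 44 genes (56.8%), beside 28.6% of all genes. A region is the union of overlapping peaks of the libraries with a summit in the gene and none in a promoter window. Collagen genes are long, with a median of 114 kb against 17.4 kb over all genes, and their density of 1.79 regions per 100 kb lay near the 1.61 of all genes. Of the 96, 93 lay in introns (13 of them in intron 1), 2 in coding exons and 1 in an untranslated exon, counting introns along 1 coding transcript of each gene. Of the 44 genes, 20 had both a promoter peak and a region, 4 had a promoter peak only (Col1a1, Col1a2, Col6a2 and Col25a1) and 5 had a region only (Col6a6, Col9a2, Col22a1, Col15a1 and Col28a1). The remaining 15, Col3a1, Col7a1 and Col6a1 among them, had neither. Shares over all genes are not given for these groups.

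By library, 40 of the 96 regions had a peak in Msx2-WT and 30 and 82 in Msx2-KO replicates 1 and 2. All 3 libraries shared 18 (18.8%), beside 16.6% of the 16699 regions of all genes. Both Msx2-KO libraries and not Msx2-WT had 9 (9.38%, against 8.31%), and Msx2-WT alone had 11 (11.5%, against 23.9%). Msx2-KO replicate 2 alone had 44 (45.8%, against 33.1%), Msx2-WT with Msx2-KO replicate 2 had 11 (11.5%, against 14%) and Msx2-KO replicate 1 alone had 3 (3.13%, against 3.16%). Msx2-WT with Msx2-KO replicate 1 had 0, against 0.904%. Regions shared by all 3 libraries or by the Msx2-KO replicates only thus lay near their background shares. Without Msx2-KO replicate 2, Msx2-WT alone held 22 regions, and without Msx2-KO replicate 1, 54 were in the remaining Msx2-KO library and not in Msx2-WT.

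Col18a1 had the most regions, 9 or 7.87 per 100 kb, the highest density of the 44 genes. Col8a2 and Col17a1, which are shorter, followed in density with 7.26 and 6.56 per 100 kb. Col4a6 followed with 8, 7 of them in Msx2-KO replicate 2 alone at 6 to 15 tags. Col24a1 and Col27a1, minor fibrillar collagens, had 7 each, and Col23a1 and Col4a3 had 6 each. By class the density was highest in the 2 multiplexin genes, Col15a1 and Col18a1, with 5.47 regions per 100 kb. It was 2.58 in basement-membrane genes, 2.29 in fibrillar, 1.82 in short-chain network, 1.37 in FACIT, 1.05 in Col6 and 0.948 in transmembrane genes. Every basement-membrane gene had a region. In the Col6 class all 5 regions lay in Col6a6, and Col6a1 and Col6a2 had none. Of the 9 transmembrane regions, 6 lay in Col23a1 and 3 in Col17a1, and 4 of the 9 were in Msx2-WT alone.

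**Figure D4:**
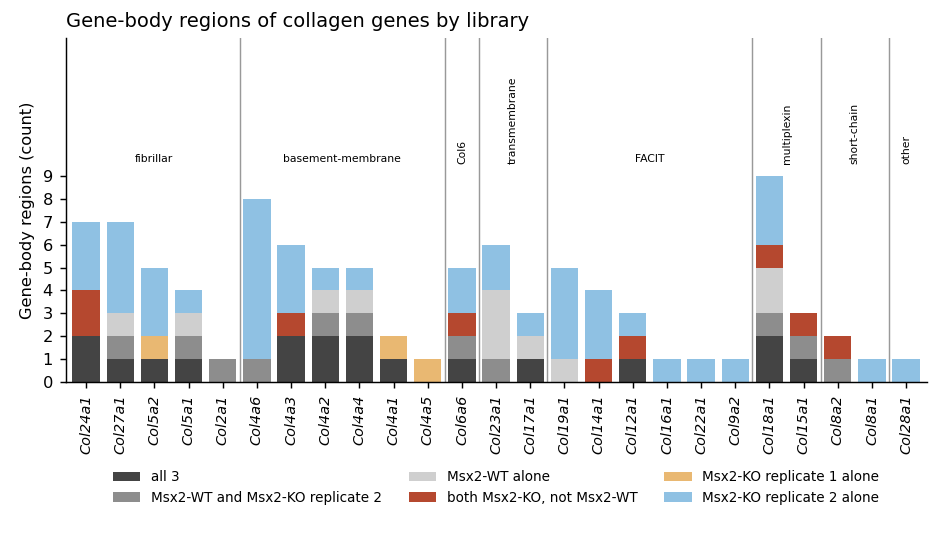
Open regions inside each collagen gene and away from promoters (y axis, count), coloured by the libraries in which they had a peak and grouped by class. Pale blue, the regions of Msx2-KO replicate 2 alone, makes up 44 of 96. Col18a1 stands highest with 9, and light grey, Msx2-WT alone, is largest in Col23a1 with 3.

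Of the 18 regions shared by all 3 libraries, 7 lay in the Col4 genes. In intron 1 of Col4a1 the summit had 21 tags in Msx2-WT and 18 and 37 in Msx2-KO replicates 1 and 2, or 12.1, 37.8 and 46.8 times the background. In intron 3 of Col4a2 it had 22, 29 and 36 tags, or 12.7, 60.9 and 45.6 times. These introns were open in every library while the promoter shared by both genes was open in Msx2-KO replicate 2 only. A second region of Col4a2, in intron 4, had 13, 7 and 23 tags.

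In Col4a3, intron 34 had 12, 9 and 40 tags in Msx2-WT and Msx2-KO replicates 1 and 2, the highest tag number among the shared regions, and intron 1 had 11, 17 and 18. Col4a4 had 23, 9 and 9 tags in intron 37 and 10, 7 and 6 in intron 1. Over the background, intron 34 of Col4a3 ran from 6.90 in Msx2-WT to 18.9 and 50.6 in the Msx2-KO libraries. Intron 37 of Col4a4 was at 13.2, 18.9 and 11.4. Its summits lay apart, at chr1:82477692 in Msx2-WT and at 82476866 and 82476503 in Msx2-KO replicates 1 and 2. The Msx2-WT peak there did not overlap that of replicate 2. In intron 1 of Col4a3 the summits lay at 82598609, 82597397 and 82597422. The values of these regions thus do not compare the same site across libraries. Intron 14 of Col17a1 had 23, 9 and 12 tags, or 13.2, 18.9 and 15.2 times the background. Intron 7 of Col6a6, the only Col6 region in all 3 libraries, had 14, 6 and 8 tags.

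The 201 bases centred on the highest summit are shown for the regions of Col4a1, Col4a2, Col4a3 and Col17a1 found in every library (GRCm38, strand of the gene). Capitals mark TAATTA or TAATTG of homeodomain factors, TGACTCA or TGAGTCA of AP-1 and GGAATG of TEAD on either strand.
Col4a1 intron 1, chr8:11307640-11307840: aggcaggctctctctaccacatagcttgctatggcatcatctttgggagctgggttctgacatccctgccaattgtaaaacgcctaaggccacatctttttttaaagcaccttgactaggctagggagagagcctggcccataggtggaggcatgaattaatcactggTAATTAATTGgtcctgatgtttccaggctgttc
Col4a2 intron 3, chr8:11343283-11343483: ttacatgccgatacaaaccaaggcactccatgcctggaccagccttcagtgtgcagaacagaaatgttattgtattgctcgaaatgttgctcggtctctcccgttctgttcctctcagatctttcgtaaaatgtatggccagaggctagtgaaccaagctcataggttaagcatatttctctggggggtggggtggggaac
Col4a3 intron 34, chr1:82687835-82688035: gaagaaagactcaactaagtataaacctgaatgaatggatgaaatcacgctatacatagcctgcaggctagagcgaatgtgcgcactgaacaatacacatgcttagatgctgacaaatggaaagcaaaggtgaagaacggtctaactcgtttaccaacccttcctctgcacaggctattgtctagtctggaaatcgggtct
Col17a1 intron 14, chr19:47671125-47671325: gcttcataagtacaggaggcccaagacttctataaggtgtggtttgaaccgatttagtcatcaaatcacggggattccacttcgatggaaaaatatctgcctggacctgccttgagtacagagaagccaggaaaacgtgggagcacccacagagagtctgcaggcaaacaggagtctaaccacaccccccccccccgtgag
Only the region of Col4a1 held a match in these letters, 2 overlapping ones of the homeodomain kind.

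At the 18 shared regions Msx2-WT had the lowest level over the background of the library in 16 (88.9%), beside 86.1% of the 2778 such regions of all genes, so the collagen regions did not stand apart. The medians were 8.92 in Msx2-WT and 18.9 and 22.1 in Msx2-KO replicates 1 and 2, against 10.4, 21.0 and 24.0 over all genes. On the scale of the deposited fold over the local background, Msx2-WT was lower than the mean of both Msx2-KO libraries in 14 of 18 and higher in 4, with a median log2 difference of -0.28. The same median was -1.22 on tags over the typical background, so its size depended on the background used. In some of the 18 regions the summits lay apart, and there the levels do not compare the same site. Besides the regions of Col4a3 and Col4a4 described above, intron 1 of Col5a2 was such a case. Its summit lay at chr1:45447972 in Msx2-WT and at 45449126 and 45449100 in Msx2-KO replicates 1 and 2.

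**Figure D5:**
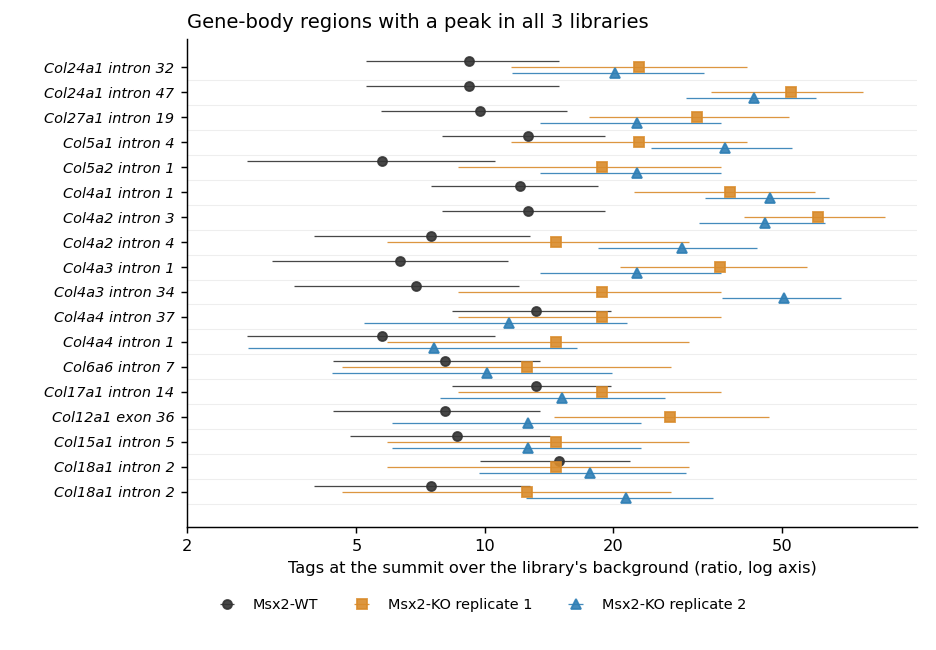
Tags at the summit over the typical background of the library (x axis, ratio, log scale) for the 18 collagen gene-body regions with a peak in all 3 libraries. Bars are exact 95% Poisson intervals of the tag number. In some regions the summits of the libraries lay apart, so the symbols do not compare the same site. Msx2-WT is leftmost in 16 of 18, but in most of the 18 regions its interval overlaps that of an Msx2-KO library. It ends below both Msx2-KO intervals in a few regions only, among them intron 1 of Col4a1 and intron 3 of Col4a2.

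The 9 regions open in both Msx2-KO replicates but not Msx2-WT lay in Col24a1 (2), Col4a3, Col6a6, Col12a1, Col14a1, Col15a1, Col18a1 and Col8a2. The highest in Msx2-KO replicate 1 was in intron 2 of Col15a1, a basement-membrane collagen related to Col18a1, with 14 tags in each Msx2-KO library and none listed in Msx2-WT. Over the background it stood at 29.4 and 17.7. The 11 regions of Msx2-WT alone lay in Col23a1 (3), Col18a1 (2), Col4a2, Col4a4, Col5a1, Col17a1, Col19a1 and Col27a1, at 9 to 16 tags. The highest, at 16 tags each, lay in intron 15 of Col4a4, intron 2 of Col23a1 and intron 2 of Col18a1. The first and the second had no listed summit in either Msx2-KO library.

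The 201 bases at the summit are shown for the region of Col15a1 that set both Msx2-KO libraries apart and for those of Col23a1 and Col4a4 that set Msx2-WT apart (GRCm38, strand of the gene), and none held a match to the homeodomain, AP-1 or TEAD letters.
Col15a1 intron 2, chr4:47235424-47235624: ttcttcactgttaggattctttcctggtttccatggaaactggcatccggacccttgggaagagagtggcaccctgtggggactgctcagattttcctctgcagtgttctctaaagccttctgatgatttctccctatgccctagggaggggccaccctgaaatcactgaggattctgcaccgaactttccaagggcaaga
Col23a1 intron 2, chr11:51493798-51493998: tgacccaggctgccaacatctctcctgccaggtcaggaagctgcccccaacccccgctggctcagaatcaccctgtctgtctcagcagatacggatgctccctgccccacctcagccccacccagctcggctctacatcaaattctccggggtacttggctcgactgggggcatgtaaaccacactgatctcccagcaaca
Col4a4 intron 15, chr1:82528067-82528267: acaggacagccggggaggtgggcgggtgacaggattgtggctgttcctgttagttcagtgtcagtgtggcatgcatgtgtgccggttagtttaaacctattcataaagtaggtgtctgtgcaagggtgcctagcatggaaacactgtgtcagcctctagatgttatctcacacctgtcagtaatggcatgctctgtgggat

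Over the wider window of 150 bases either side of the summit, homeodomain letters were found at 28.1% of the 96 collagen regions and 19.5% of all 16699 regions. They were at 3 of 9 collagen regions of the Msx2-KO replicates only (33.3%, against 28.3% of such regions of all genes) and at 0 of 11 of Msx2-WT alone, against 10.6%. Regions of all 3 libraries held them as often, at 6 of 18 (33.3%, against 19.2%). In Msx2-KO replicate 2 alone they were at 15 of 44 (34.1%, against 25.2%). AP-1 letters were found at 18.8% and 14.1%, and at 4 of 11 of Msx2-WT alone (36.4%, against 15.1%). TEAD letters were found at 17.7% and 20.3%. With 9 to 44 regions in a split these shares are descriptions.

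Genes for the enzymes and chaperones that build collagen chains were open about as often as all genes in Msx2-WT and somewhat more often in both Msx2-KO libraries. Of 18 genes that modify or fold the chains in the cell, 9 were open in Msx2-WT and 10 and 13 in Msx2-KO replicates 1 and 2. The shares over all genes were 47.1%, 37.9% and 53.7%, and 5 of the 18 had no peak in any library. The 8 open in all 3 were P4ha1, P4hb, Plod3, Colgalt1, Crtap, P3h1, Ppib and Serpinh1. P4ha1, a prolyl 4-hydroxylase subunit, had 44, 30 and 44 tags, and Serpinh1, the collagen chaperone, had 12, 9 and 16. Plod2, a lysyl hydroxylase, and P3h3, of the prolyl 3-hydroxylase family, were open in both Msx2-KO replicates but not Msx2-WT. Plod2 had 6, 6 and 14 tags and P3h3 had 5, 5 and 9. The Msx2-WT summits of both genes thus held as many tags as those of Msx2-KO replicate 1, over a higher background.

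Of 13 genes that trim or crosslink secreted collagen, 2, 1 and 5 had a promoter peak, below the shares of all genes (47.1%, 37.9% and 53.7%). Tll1, a procollagen protease, set both Msx2-KO libraries apart, with 7 tags below the threshold in Msx2-WT and 8 and 12 in Msx2-KO replicates 1 and 2. Loxl4, of the lysyl oxidase family, was open in Msx2-WT alone, with 12 tags there, none listed in Msx2-KO replicate 1 and 5 below the threshold in replicate 2. Among 7 collagen receptors 3, 2 and 4 were open, near those shares, with the integrin subunit gene Itgb1 and the receptor kinase gene Ddr1 in all 3 libraries. None of 5 collagenases and gelatinases (Mmp2, Mmp8, Mmp9, Mmp13 and Mmp14) had a promoter peak in any library. Mmp14 had a summit of 12 tags in Msx2-KO replicate 2, or 15.2 times the typical background, that did not pass. Mmp8 and Mmp9 had summits of fewer tags below the threshold. Of the hemidesmosome partners of Col17a1, 5 of 5 were open at the promoter in Msx2-WT and 4 and 5 in Msx2-KO replicates 1 and 2. These counts lay above the shares of all genes. The promoter of Col17a1 was open in replicate 2 but not in Msx2-WT or replicate 1. All 5 partners thus differed from it in Msx2-WT, and 4 of 5 in replicate 1, where Cd151 had 5 tags below the threshold. Dst had 47, 15 and 31 tags, and Itga6, whose product CD49f was used in the sort, had 21, 6 and 16.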

How the data were processed

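Omni-ATAC-seq peak lists of 3 libraries were used, 1 from Msx2-WT and 2 from Msx2-KO HFSCs. Per the study's methods, reads were trimmed with Trimmomatic, aligned with BWA-MEM to GRCm38, and peaks were called per library with MACS2 without a model and with duplicates kept. The MACS2 version was not given in the sources used here. The submitters' processing notes also name Partek and mm10. Each list gave a fold enrichment deposited by the authors, which is the ratio of the tag number plus 1 to the local background plus 1. Values of −log10 p and −log10 q from a Poisson test were likewise deposited, and other columns hold positions. The lists reach down to a p-value of 0.01.

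Tag numbers were recovered from the fold and −log10 p of each summit, a whole number being found for at least 99.9863% of summits (tolerance 0.001), and the commonest background stands in for library depth, since read depth is unknown. Summits with −log10 q above 2.0 on chromosomes 1 to 19, X and Y were kept and placed on GENCODE M21 (basic) with numpy 2.4.6, pandas 2.3.3 and pysam 0.24.0. Regions were merged by at least 1 shared base. Steps were tested on simulated data. No between-genotype test was run. The alternatives were other thresholds, windows, start sites and overlaps and leaving out each Msx2-KO library. Collagen genes and all lists were chosen with earlier results of these data known. Values in each library are given by rule for genes open in all 3 libraries, in the Msx2-KO replicates only or in Msx2-WT alone, for the genes with the most gene-body regions and for regions in all 3 libraries of basement-membrane, Col6 and transmembrane genes. Values for Col1a1, Col16a1, Col23a1, Col12a1, Col5a2 and Col17a1 and for examples from the lists were added after they were seen.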

Additional observations from a re-analysis of the deposited data

How the results depend on the processing

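Placing peaks by any overlap of their interval, by the outer start site or in a window of 3000 bases kept each count of collagen promoters, classes and gene-body regions within 1.5 times its value. With −log10 q of at least 5, collagen genes with a promoter peak numbered 2 in Msx2-WT and 0 and 9 in Msx2-KO replicates 1 and 2, 0 were open in all 3 libraries and 0 in the Msx2-KO replicates only. Gene-body regions then numbered 7 in all 3 libraries, 1 in the Msx2-KO replicates only and 7 in Msx2-WT alone. By class, fibrillar genes fell to 0 in Msx2-KO replicate 1 and 4 in replicate 2, basement-membrane genes to 0 and 2, Col6 genes to 0 and 0, and transmembrane genes to 0 in Msx2-WT and 1 in replicate 2. With every deposited summit, the collagen promoters numbered 20 in Msx2-WT (45.5%) and 15 and 29 in Msx2-KO replicates 1 and 2 (34.1% and 65.9%). The shares over all genes were then 58.8%, 45.3% and 61.9%. Of the collagen promoters, 10 were open in all 3 libraries and 3 in Msx2-WT alone, and gene-body regions numbered 34 and 131 in the same order. Fibrillar genes were then 5 in Msx2-WT and 4 in Msx2-KO replicate 1, basement-membrane genes 2 and 4, and transmembrane genes 3 and 1. With lists of equal length there were 2 collagen promoters in Msx2-WT and 8 in Msx2-KO replicate 2, 0 in all 3 libraries, and 7 gene-body regions in all 3 libraries and 7 in Msx2-WT alone. In Msx2-KO replicate 2 fibrillar genes were then 3, basement-membrane genes 2, Col6 genes 0 and transmembrane genes 1, and Msx2-WT had 0 transmembrane genes. With a window of 500 bases there were 3 collagen promoters in Msx2-WT and 1 in all 3 libraries, fibrillar genes were 0 in Msx2-WT and 3 in Msx2-KO replicate 2, and basement-membrane genes 1 in Msx2-KO replicate 1. Requiring 50% reciprocal overlap left 9 gene-body regions in all 3 libraries and 25 in Msx2-WT alone. The median log2 level of Msx2-WT over Msx2-KO at the shared regions went from -0.28 to -1.22 with tags over the commonest background. The cause of these shifts beyond the number of summits kept was not tested.

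Leaving out 1 Msx2-KO library at a time, promoters open in every remaining library ranged from 2 to 5, those in Msx2-KO and not Msx2-WT from 4 to 19 and those in Msx2-WT alone from 0 to 3. Gene-body regions ranged from 18 to 28, from 12 to 54 and from 12 to 22 in the same order. The higher ends of the first and the second count came without Msx2-KO replicate 1 and that of Msx2-WT alone without replicate 2. No paired analysis was possible because no test between genotypes could be run with 1 Msx2-WT library. With median tag numbers of 12, 7 and 10 at open collagen promoters, a few tags decide whether a promoter passes.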
